A study of Mus musculus with 16 samples.

Results

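Granulocyte-monocyte progenitors (GMP) of mice labelled Tet2KO were compared with GMP of mice labelled WT, across every gene of the authors' deposited table for this population. The members were the 8 samples labelled GMP, 4 Tet2KO and 4 WT, of 16 samples in the series. The other 8 samples are multipotent progenitors (MPP) of the same design. Mice labelled WT have the genotype Tet2fl/fl and mice labelled Tet2KO the genotype Tet2-/-, all were 40 weeks old, and each library came from 1 animal. The labels describe the blood system of these mice as wild type or as lacking Tet2 and name no Cre line, so the cell types in which the allele was removed cannot be stated. GMP were sorted from Kit-enriched bone marrow as Lin-cKit+Sca1-CD150-CD16/32+ cells. Of 23420 gene symbols, 11503 were tested, 11603 had a mean too low for a test and 314 were marked as outliers without a p-value. The table gives each gene's mean normalized count over the 8 libraries, a log2 fold change (Tet2KO over WT), its standard error (SE), and p-values, but no value per library. The spread between mice is therefore visible only through the SE, the depth of each library is unknown, and no value per mouse can be shown.

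TET2 is a dioxygenase that oxidizes 5-methylcytosine, mostly at CG dinucleotides, which starts the removal of DNA methylation at enhancers and promoters. Its gene is among those often mutated in myeloid disease and in clonal blood formation of later life. GMP are committed progenitors that divide rapidly, fill primary granules with proteases and give rise to neutrophils and monocytes, with CEBPA and GFI1 acting on the granulocyte side and IRF8 on the monocyte side. The question put to these libraries was which transcripts differ between GMP of mice with and without Tet2.

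The RNA carried the markers of GMP. Scaled to exon length, the mean normalized counts of the granule genes Mpo, Ctsg and Prtn3 stood above those of 98.8%, 98.7% and 98.2% of tested genes in the authors' deposited table. Those of Kit and Cd34 stood above 94.97% and 93.6%, and that of the granulocyte colony-stimulating factor receptor gene Csf3r above 92.7%. Exon length was known for 98.8% of tested genes, which is the highest value possible here. The sorting antigen CD16/32 is encoded by Fcgr3, above 86.0% of tested genes, and Fcgr2b, above 44.0%. Genes of antigens gated against were low, with a mean of 19.5 for Ly6a (Sca1), 3.77 for Slamf1 (CD150) and 0.250 for Cd3e in the authors' deposited table. Itgam, which encodes CD11b of the lineage cocktail, had a mean of 572. Kit, Cd34, Mpo and Prtn3 were not called, with log2 fold changes of 0.01 (SE 0.0608), -0.01 (SE 0.0733), 0.08 (SE 0.0774) and 0.04 (SE 0.112) in the authors' deposited table. Ctsg (-0.31, SE 0.0767) and Ms4a3 (-0.40, SE 0.0976) were called lower. Of the genes for CD16/32, the antigen that GMP were sorted on, Fcgr3 had a value of -0.32 (SE 0.143) and Fcgr2b of -0.26 (SE 0.118), neither called. Transcripts of other lineages made up small parts of the sum of all means. The mast cell and basophil list held 0.213%, the megakaryocyte and platelet list 0.0960% and the erythroid list 0.0743%. The B cell and lymphoid list held 0.0243%, the T and NK cell list 0.0216% and the stromal and endothelial list 0.0272%. The globin genes Hba-a1, Hba-a2, Hbb-b1 and Hbb-b2, the B cell genes Vpreb2 and Ms4a1, the T and NK cell genes Cd3g and Prf1, and the stromal genes Lum and Dcn were listed at a mean of 0 in the authors' deposited table. Other members of these lists were abundant. The highest means were 2535 for Tfrc (erythroid), 1428 for Satb1 (B cell), 1949 for Nkg7 (T and NK cell) and 1274 for Pecam1 (stromal and endothelial). The erythroid genes Car2 and Car1 had means of 2036 and 1578. How reads shared by similar globin genes were counted is not stated in the sources used here. In bulk RNA, fewer cells of a type and less RNA per cell cannot be told apart, which holds for every value below.

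Tet2 (GRCm38 chromosome 3, 133463679 to 133545139, minus strand) was higher in the libraries labelled Tet2KO, where the authors' deposited table gives a log2 fold change of 0.35 (adjusted p = 0.000409, SE 0.0748). A value for the whole gene, with none per exon, checks neither the deletion nor the labels, and "higher" and "lower" refer throughout to libraries as they were labelled. Tet3, a paralogue with the same activity, rose by 0.23 (SE 0.0624), whereas Tet1 had a value of -0.11 (SE 0.0873) in the authors' deposited table. The maintenance and de novo DNA methyltransferase genes did not pass, with -0.00 for Dnmt1 (SE 0.0787), 0.12 for Dnmt3a (SE 0.0603) and -0.03 for Dnmt3b (SE 0.0958). Zbtb4, which encodes a protein that binds methylated DNA, rose by 0.56 (SE 0.160) in the authors' deposited table.

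A gene counts as called where the authors' adjusted p is under 0.05 (DESeq2, Benjamini-Hochberg). Called genes numbered 456, or 3.96% of those tested, 201 of them higher (1.75%) and 255 lower (2.22%) in Tet2KO. Most changes were small: 297 of the 456 (65.1%) lay within 0.5 of 0 on the log2 scale. The median log2 fold change was 0.54 among called higher and -0.33 among called lower genes, and 31 rose and 14 fell by at least 1. Over all tested genes the median was 0.00 and 50.1% lay above 0.

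Direction followed expression level. Among genes with a mean of 10 to 50, 35 were called higher and 12 lower, and with a mean of 50 to 100 the counts were 23 and 4. At 100 to 500 they were 77 and 66, at 500 to 1000 they were 33 and 55, at 1000 to 5000 they were 28 and 102, and at 5000 and above 5 and 16. Higher genes made up 74.5% of calls in the lowest of these levels and 23.8% in the highest. All tested genes shifted the same way, since 64.0% of those at 10 to 50 lay above 0, with a median log2 fold change of 0.12, against 33.9% and a median of -0.04 at 5000 and above. The share called grew with the level too, from 2.32% at 10 to 50 to 7.66% at 5000 and above. Precision differed along this axis. The median SE was 0.303 in the lowest level and 0.0666 in the highest, so that at the median SE a gene had to change by 0.94 or by 0.21 to be called. When each level was recentred on its own median, an alternative chosen after seeing the data, 220 genes were higher and 200 lower, with 16 and 16 at 10 to 50 and 14 and 10 at 5000 and above. In between, the counts were 16 and 7 at 50 to 100, 77 and 63 at 100 to 500, 48 and 40 at 500 to 1000, and 49 and 64 at 1000 to 5000. The tilt of the calls with level was thus smaller after recentring, but lower calls still outnumbered higher ones at 1000 to 5000. The level medians taken out ran from 0.12 to -0.04 on the log2 scale. In MPP, measured in the same design, 73 genes were called (0.616% of 11859 tested). They numbered 7 higher and 5 lower at 10 to 50, 1 and 6 at 50 to 100, and 18 and 14 at 100 to 500. At 500 to 1000 they were 5 and 2, at 1000 to 5000 they were 9 and 5, and at 5000 and above 1 and 0. Whether the order differs between the populations was not tested.

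**Figure D1:**
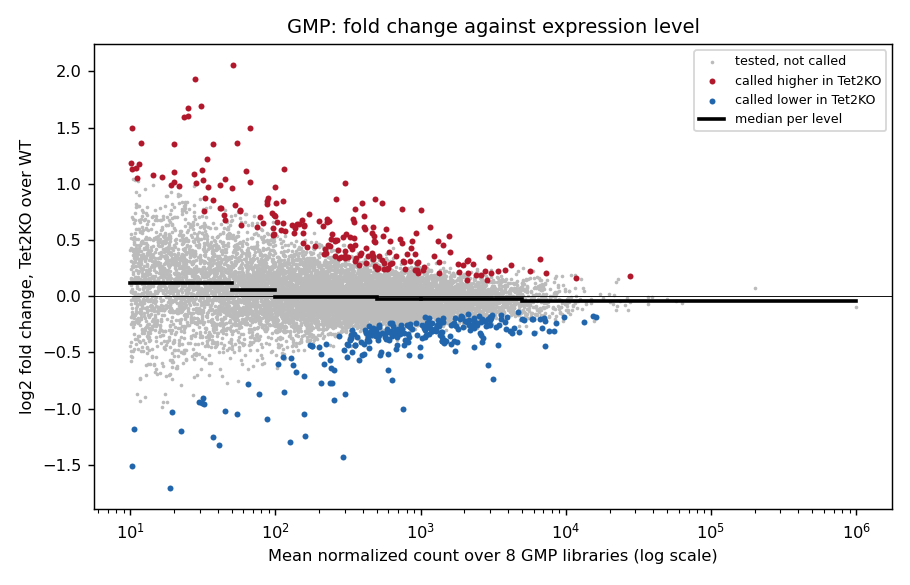
Each point is a tested gene, with the mean normalized count over the 8 GMP libraries on a log scale (x axis) and the log2 change from WT to Tet2KO (y axis); black bars are the medians of 6 expression levels. Called higher genes (red) reach 2.06 and have a median mean of 301, near the 291 of all tested genes, and called lower genes (blue) crowd within 0.5 of 0 at means above 500.

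**Figure D2:**
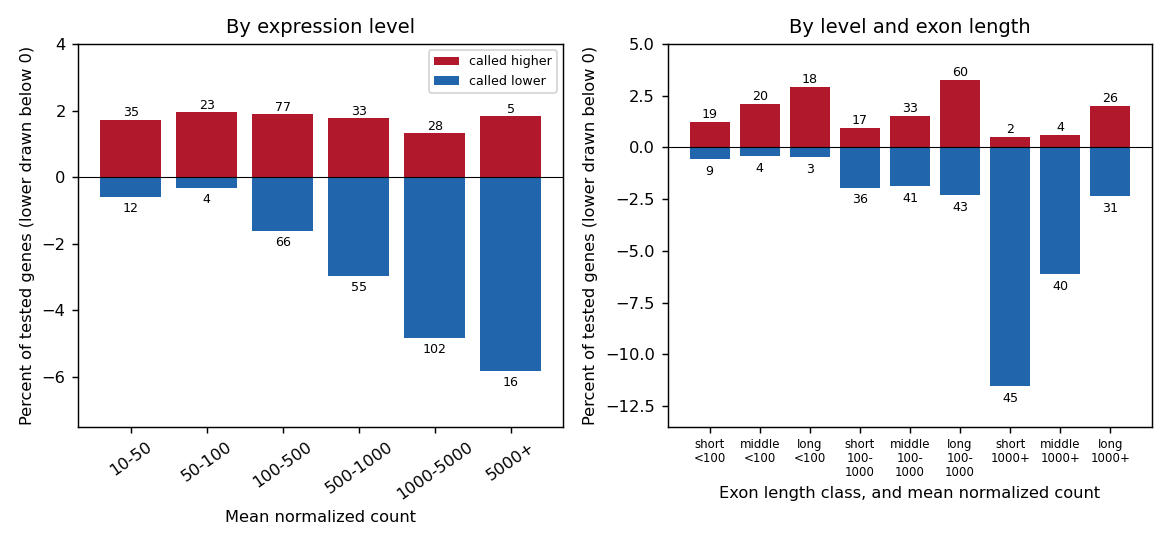
Bars give the percent of tested genes called higher (red, above 0) and lower (blue, below 0) by mean normalized count (left) and by mean and exon length together (right), and the numbers count genes. Calls turn from mostly higher to mostly lower as the mean rises, and among genes with a mean of 1000 and above the short genes hold 2 higher and 45 lower.

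The genes of smallest adjusted p in each level show what both ends hold. At a mean of 10 to 50 the SNARE regulator Cplx2 (1.93, SE 0.330), Gprin3 (1.60, SE 0.286) and the caveolar protein gene Sdpr (1.69, SE 0.328) rose, and the mast cell chymase Cma1 (-1.71, SE 0.338) and the interleukin-22 binding protein gene Il22ra2 (-1.33, SE 0.268) fell in the authors' deposited table. At 50 to 100, the secreted platelet protein Mmrn1 (2.06), the matrix protease Mmp2 (1.496) and the Wnt ligand Wnt2b (1.12) rose, and the actin-binding calponin Cnn3 (-1.09), the nuclear receptor Hnf4a (-1.05) and Serpinb10 (-0.87) fell.

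In the middle levels, rises and falls were both common in the authors' deposited table. At 100 to 500, Med12l (1.01, SE 0.136), the monocyte surface gene Ms4a6c (0.56, SE 0.0812) and the SLAM family receptor gene Cd244 (0.78, SE 0.116) rose. The growth factor gene Vegfa (-0.92, SE 0.108), the lectin-like receptor gene Olr1 (-1.43, SE 0.170) and the lipid raft protein gene Rftn1 (-0.52, SE 0.0859) fell. At 500 to 1000, the octamer-binding factor gene Pou2f2 (0.83, SE 0.130), the matrix glycoprotein gene Emilin2 (0.77, SE 0.132) and the tropomyosin gene Tpm4 (0.60, SE 0.108) rose, and the sphingomyelin synthase Sgms2 (-0.9996, SE 0.158), the histone gene Hist1h2be (-0.52, SE 0.0998) and the amyloid precursor gene App (-0.53, SE 0.103) fell.

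At the top, changes were modest and mostly downward. At 1000 to 5000 the focal adhesion gene Tns1 (0.77, SE 0.126) and the shared interleukin-6 family receptor gene Il6st (0.62, SE 0.115) rose in the authors' deposited table, and the inhibitory G protein gene Gnai3 (-0.43, SE 0.0518), choline dehydrogenase Chdh (-0.61, SE 0.0866) and Fam49b (-0.42, SE 0.0641) fell. At 5000 and above the rises were those of the repressor gene Zeb2 (0.33, SE 0.0813), the RNA helicase gene Ddx17 (0.22, SE 0.0610), Mll2 (0.21, SE 0.0607), B2m (0.18, SE 0.0551) and Ly6e (0.16, SE 0.0514). B2m, the light chain of MHC class I, and Ly6e complete the 5 higher calls of this level. The falls of smallest adjusted p there were the Arp2/3 subunit gene Actr3 (-0.33, SE 0.0632), the calmodulin gene Calm2 (-0.22, SE 0.0474) and the surface glycoprotein gene Cd24a (-0.44, SE 0.0952).

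Exon length moved with direction as well. Called higher genes had a median of 6.31 kb of annotated exons, called lower genes 4.09 kb and tested genes that were not called 4.46 kb. Among genes with a mean of 1000 and above, short genes (up to 3.35 kb, with classes of equal size over all tested genes) held 2 higher and 45 lower calls of 390, middle ones 4 and 40 of 653, and long ones (above 5.90 kb) 26 and 31 of 1314. At 100 to 1000 the same classes held 17 and 36, 33 and 41, and 60 and 43. Below a mean of 100, higher calls outnumbered lower ones in every class, at 19 and 9, 20 and 4, and 18 and 3. The median log2 fold change was -0.09 for the short and -0.00 for the long genes at a mean of 1000 and above. Libraries had been amplified from 2 ng of total RNA, and the part of length in any list below was not tested. Median exon lengths are given here or below for part of the 1-sided lists. With lower calls only, the oxidative phosphorylation list had 1.80 kb, cytosolic ribosomal proteins 1.78 kb and the proteasome 2.80 kb. ER folding genes had 3.36 kb, mast cell genes 2.77 kb and glycolysis genes 4.43 kb, also with lower calls only. With higher calls only, monocyte genes had 2.99 kb, megakaryocyte genes 2.88 kb and interferon response genes 3.78 kb.

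By function, 71 gene lists were counted, of which 60 held at least 1 called gene, 23 with lower calls only, 13 with higher calls only and 24 with both. The lists named 3420 tested genes and held 192 of the 456 called, where 3.96% of all 11503 tested genes were called. How many lists would hold a call at that share was not computed, and a list with 1 call is 1-sided by definition. In 37 of the 71 most tested members lay below 0.

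**Figure D3:**
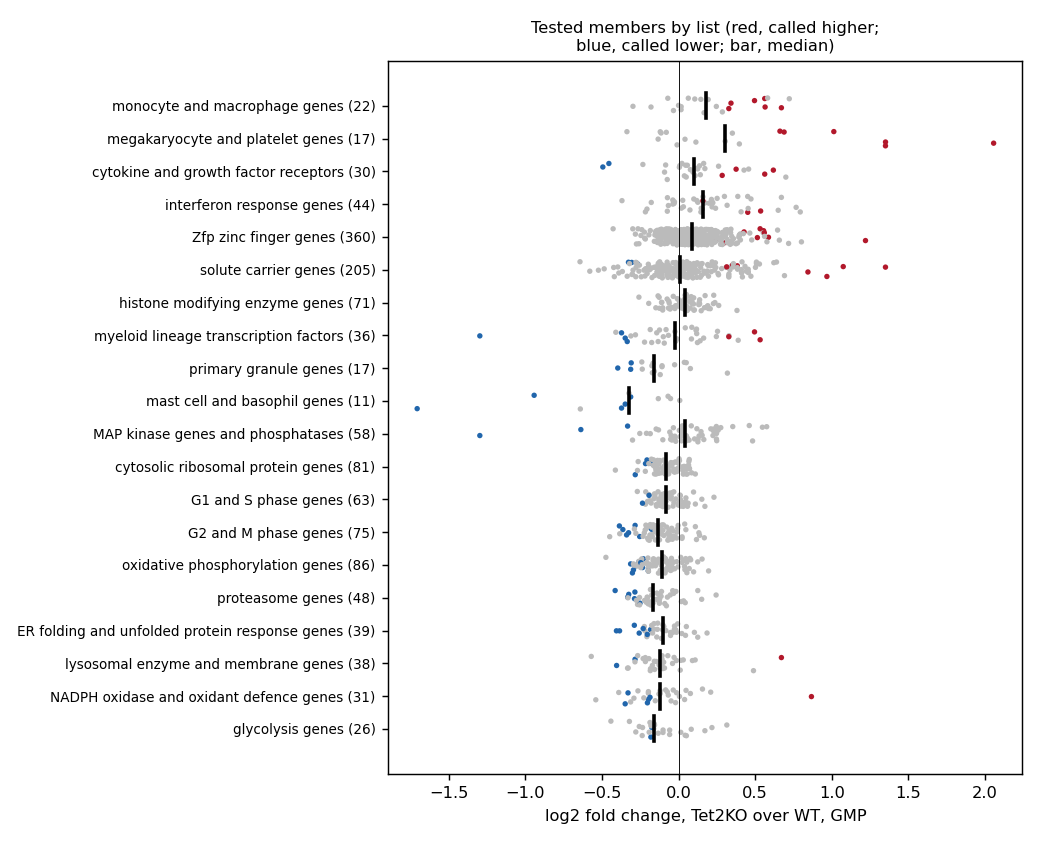
Log2 fold changes of Tet2KO over WT in GMP (x axis) for the tested members of 20 of the 71 lists (number in brackets); red points were called higher, blue points lower, grey points were not called, and black bars are medians. Monocyte, megakaryocyte and zinc finger lists have their calls on the right, and the lists of proteasome, oxidative phosphorylation, G2 and M phase and ER genes have theirs on the left.

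Monocyte and granule genes of GMP had their calls on opposite sides. Of 22 tested monocyte and macrophage genes 6 were called higher and none lower, 18 lay above 0 and the median was 0.18, against 0.00 for all genes. Besides Ms4a6c and Zeb2, the rises were those of Csf1r, the receptor gene for macrophage colony-stimulating factor (0.56, SE 0.111), the fate regulator Irf8 (0.50, SE 0.131), the lysosomal protease gene Ctss (0.67, SE 0.140) and Cd68 (0.34, SE 0.104) in the authors' deposited table. Genes of mature monocytes that did not pass included Emr1 (0.72), Cd14 (0.58), Mpeg1 (0.17) and Cx3cr1 (-0.30), and 9 of the 36 list members were under the minimum mean. Primary granule genes had 3 lower calls of 17 tested, 13 below 0 and a median of -0.16, with Ms4a3 at -0.40 (SE 0.0976), Ctsg at -0.31 (SE 0.0767) and the proteoglycan gene Srgn at -0.31 (SE 0.0815), while Mpo and Prtn3 were near 0. The repressor gene Gfi1 fell by 0.33 (SE 0.0828), and Cebpa (0.12, SE 0.0831) and Cebpe (-0.41, SE 0.171) did not pass. Late neutrophil granule genes had 2 higher and 2 lower calls of 10 tested, with 8 below 0 and a median of -0.24. The phagocyte oxidase subunit gene Cybb (0.87, SE 0.152) and the collagenase gene Mmp8 (1.36, SE 0.252) rose, and Pglyrp1 (-0.77, SE 0.180) and Ncf1 (-0.35, SE 0.110) fell in the authors' deposited table.

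Programmes outside the granulocyte and monocyte lineages also had 1-sided calls. Mast cell and basophil genes had 5 lower calls of 11 tested and a median of -0.32. Beside Cma1 and Srgn these were the muscle LIM protein gene Csrp3 (-0.94, SE 0.270), Gata2 (-0.37, SE 0.114) and Lmo4 (-0.35, SE 0.0683), and the 6 members marked as outliers all lay below 0. The called mast cell genes thus include Srgn, Gata2 and Lmo4, which progenitors express at means of 7608, 1025 and 938, and Cma1 and Csrp3, which had means of 18.7 and 29.5 in the authors' deposited table. Megakaryocyte and platelet genes had 6 higher calls of 17 tested and a median of 0.30. Beside Mmrn1 these were the adhesion protein gene Vwf (1.01, SE 0.206), the chemokine gene Pf4 (1.35, SE 0.345), the thrombin receptor gene F2r (0.69, SE 0.155), F2rl2 (0.66, SE 0.206) and Slc35d3 (1.35, SE 0.299), and their means ran from 20.0 for Slc35d3 to 343 for F2r. Among tested genes of this lineage that were not called, Itga2b had a value of 0.11, Fli1 of -0.01 and Nfe2 of -0.13 in the authors' deposited table. Of the 6 members marked as outliers, which carry no test, 5 lay above 0 and 1 below. Those above 0 included Selp (0.93, SE 0.297, mean 383) and Itgb3 (0.55, SE 0.176, mean 356). How much either list reflects other cells in the sort was not tested. Of the stromal and endothelial list 3 were higher (Mmp2, Pdgfrb at 0.48 and Eng at 0.24) and Vcam1 was lower (-1.24, SE 0.222). Erythroid genes could hardly be tested, as 16 of 27 were marked as outliers, 13 of them below 0, and the 3 tested ones were not called. No B cell, T cell, NK cell or eosinophil gene was called. Rag2 had a value of -0.56 (SE 0.306), Satb1 of 0.25 (SE 0.0854), Nkg7 of -0.24 (SE 0.0889), Klrk1 of 0.70 (SE 0.327), Prg3 of -0.94 (SE 0.346) and Il5ra of -0.36 (SE 0.251).

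Regulators of stem and progenitor cells went both ways, with 3 higher and 5 lower calls of 22. Among the rises was that of the MYC family gene Mycn (1.10, SE 0.346). The transcription factor gene Mecom (-0.85, SE 0.219), the homeobox genes Hoxa9 (-0.60, SE 0.175) and Hoxa10 (-1.03, SE 0.309) and the cytokine gene Angpt1 (-0.30, SE 0.0735) fell in the authors' deposited table. Hoxa9 and Hoxa10 lie 108 bases apart, and no source used here says whether the counting separated their reads. Of 36 myeloid lineage factors 3 were higher and 4 lower, the remaining ones being Zbtb16 (0.53, SE 0.110) and Etv5 (-1.30, SE 0.244). The E-box factors Max (0.33, SE 0.0863) and Mycn rose and Mxi1, which encodes a partner of MAX, fell by 0.34 (SE 0.0909).

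Receptors and signal transducers held calls in both directions. Against 3.96% of all genes, of 30 cytokine and growth factor receptor genes 6 were called (20.0%), 4 higher and 2 lower, and 24 lay above 0. Il6st and Il6ra (0.38, SE 0.0763), which encode both chains of the interleukin-6 receptor, rose together with Csf1r and the common beta chain gene Csf2rb (0.29, SE 0.0808), while Ifngr1 (-0.45, SE 0.121) and Csf2ra (-0.49, SE 0.152) fell in the authors' deposited table. Csf2ra and Csf2rb encode the subunits of one receptor, that of GM-CSF, and moved in opposite directions. Of 23 tested lectin, TREM, Siglec and CD300 receptor genes 5 were called (21.7%): Olr1, Trem3 (-1.05, SE 0.177) and the pathogen receptor gene Clec4e (-0.43, SE 0.109) fell, and Clec2d (0.37, SE 0.0990) and Cd300lb (0.68, SE 0.193) rose. Of 37 tested genes on the heterotrimeric G protein and RGS list 3 were lower, namely Gnai3, Gng10 (-0.47, SE 0.115) and Gnb2l1 (-0.20, SE 0.0629), and Rgs7bp was higher (0.98, SE 0.177). Gnb2l1 encodes RACK1, which is not a G protein subunit despite the symbol. Among 58 MAP kinase genes and phosphatases the 3 calls (5.17%) were lower, namely Etv5, the ERK phosphatase gene Dusp6 (-0.64, SE 0.173) and Spred1 (-0.33, SE 0.1002), whereas 39 lay above 0 and the list's median was 0.04. Single receptor calls were those of P2ry14 (-0.71, SE 0.145) and Adora2a (0.63, SE 0.202) for purines, and Ptger2 (0.96, SE 0.292) for prostaglandin E2, of which Ptgs1 (-0.48, SE 0.102) makes the precursor.

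Interferon response genes had 3 higher and no lower calls of 44, with 33 above 0 and a median of 0.16, and 9 further members marked as outliers all lay above 0. The rises were those of the antiviral membrane protein gene Ifitm3 (0.54, SE 0.107), Irf9 (0.45, SE 0.113), a subunit of the factor that carries the type I interferon signal, and Ly6e. All 11 tested genes whose symbol starts with Irf lay above 0 and 2 of them, Irf8 and Irf9, were called, a family looked at after its values were seen. Nfkb2 was the sole call among 31 inflammatory and NF-kB genes (0.65, SE 0.203) and Cdkn1a, the p21 inhibitor of cyclin-dependent kinases, among 26 p53 targets (0.69, SE 0.171). Of 27 BCL2 family and apoptosis genes Bcl2 itself was called (0.23, SE 0.0669), and of 21 immediate early genes Fosl2 (0.61, SE 0.139) and Fos (1.04, SE 0.281) rose and Dusp6 fell, as given above, in the authors' deposited table.

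Calls among genes of division were all lower. Of 75 tested G2 and M phase genes 7 were called lower and none higher (9.33%), 66 lay below 0 and the median was -0.14, with a median exon length of 5.15 kb, above that of genes not called. The calls were the cytokinesis gene Ect2 (-0.36, SE 0.0769), the kinetochore gene Nuf2 (-0.34, SE 0.0823), cyclin B1 gene Ccnb1 (-0.33, SE 0.0795), its kinase Cdk1 (-0.39, SE 0.107), the condensin gene Ncapg2 (-0.18, SE 0.0516), the mitotic kinase Plk1 (-0.28, SE 0.0882) and Cdca8 (-0.25, SE 0.0793) in the authors' deposited table. Their median mean was 995, and 69 of the 75 had a 95% interval within 0.5 of 0. Mki67, a widely used proliferation marker, had a value of -0.02 (SE 0.0763). Of 63 G1 and S phase genes 2 were lower (3.17%, against 3.96% called of all tested genes), the dUTPase gene Dut (-0.24, SE 0.0630) and Usp1 (-0.19, SE 0.0579), and 45 lay below 0. Replication-dependent histone genes had 5 lower calls of 47, 40 below 0 and a median of -0.28. Hist1h2be was followed by Hist1h2bm (-0.39, SE 0.0767), Hist1h1b (-0.35, SE 0.0890), Hist1h4c (-0.51, SE 0.150) and Hist2h2ab (-0.54, SE 0.165). Histone messages are short (median 0.630 kb) and carry no poly(A) tail, and similar copies can share reads, so single histone genes are uncertain.

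Promoters of the G2 and M phase genes hold known cell cycle sequence elements, which are shown here because these genes moved together. The sequences are the 150 bases before the start of 3 called members, from RefSeq on GRCm38.p6, on the gene's own strand. Capitals mark CCAAT, the NF-Y box, on either strand (as ATTGG on the opposite one), and TTTGAA, the core of the CHR element of mitotic genes, likewise on either strand; the motifs share no bases. Cdk1 is shown for chr10:69352913-69353062 (minus strand), Plk1 for chr7:122159285-122159434 (plus strand) and Ccnb1 for chr13:100786487-100786636 (minus strand).
Cdk1: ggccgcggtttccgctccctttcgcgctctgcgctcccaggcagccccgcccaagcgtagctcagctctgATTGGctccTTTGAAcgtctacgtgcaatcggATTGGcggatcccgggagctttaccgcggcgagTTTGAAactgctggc
Plk1: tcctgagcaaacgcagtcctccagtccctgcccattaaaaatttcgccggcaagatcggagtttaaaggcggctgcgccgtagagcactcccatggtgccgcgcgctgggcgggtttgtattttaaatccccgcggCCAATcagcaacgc
Ccnb1: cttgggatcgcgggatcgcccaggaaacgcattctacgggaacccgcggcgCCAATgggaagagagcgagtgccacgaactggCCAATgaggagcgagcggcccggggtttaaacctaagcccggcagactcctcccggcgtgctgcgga
In windows of 300 bases, from 250 before to 50 after the start, 41 of 57 G2 and M phase promoters held CCAAT (71.9%) and 38 held TTTGAA (66.7%). Of all tested genes with 1 such window 40.0% held CCAAT and 12.2% TTTGAA, and of all 22862 promoters 38.2% and 18.5%. A match is a description of letters and not evidence of binding.

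Calls among genes of oxidative phosphorylation and glycolysis were lower as well. Of 86 tested oxidative phosphorylation genes 8 were called lower and none higher (9.30%), 71 lay below 0 and the median was -0.11. They belong to complex I (Ndufa9 at -0.30, Ndufs1 at -0.25, Ndufa10 at -0.20 and Ndufa4 at -0.26), complex III (Uqcrc1 at -0.29, SE 0.0683) and the ATP synthase (Atp5b at -0.23, SE 0.0595, Atp5f1 at -0.24 and Atp5g3 at -0.31) in the authors' deposited table. Glycolysis genes had 2 lower calls of 26, aldolase Aldoa (-0.17, SE 0.0452) and pyruvate kinase Pkm (-0.18, SE 0.0558), 19 below 0 and a median of -0.16. Carriers of the inner mitochondrial membrane that feed this chain fell too, namely the phosphate carrier Slc25a3 (-0.31, SE 0.0713), the ADP/ATP carrier Slc25a5 (-0.33, SE 0.0904) and Slc25a11 (-0.27, SE 0.0847), while Slc25a23 (0.38) and Slc25a45 (0.35, SE 0.102) rose. Mcu (-0.57, SE 0.138), the pore of the mitochondrial calcium uniporter, fell and was singled out after its value was seen. So were the pentose phosphate enzymes Taldo1 (-0.44, SE 0.0870) and Pgd (-0.31, SE 0.0753), glycogen branching enzyme Gbe1 (-0.39, SE 0.0796), Ugp2 (-0.33, SE 0.0952) and the gluconeogenic enzyme Fbp1 (-1.02, SE 0.259).

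The oxidant defence list had 5 lower calls and 1 higher of 31 (19.4%), with 24 below 0. Peroxiredoxin Prdx6 (-0.19, SE 0.0532), glutathione peroxidase Gpx1 (-0.20, SE 0.0592) and glutathione reductase Gsr (-0.33, SE 0.105) fell. Of the NADPH oxidase, the cytosolic subunit gene Ncf1 and the GTPase gene Rac2 (-0.20, SE 0.0501) fell while the membrane subunit gene Cybb rose in the authors' deposited table. Glutathione transferase Gstm1 fell by 0.73 (SE 0.140), 1 of 14 tested in its family.

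Calls among genes that make, fold and degrade proteins were lower too, Ctss excepted. Several of these lists had a share called near or below the 3.96% of all tested genes. Of 48 tested proteasome genes 6 were called lower and none higher (12.5%), 42 lay below 0 and the median was -0.16. The calls spanned the base ATPase gene Psmc6 (-0.33, SE 0.0792), the lid deubiquitinase gene Psmd14 (-0.41, SE 0.101), Psmd6 (-0.28, SE 0.0763), and the alpha subunit genes of the core Psma5 (-0.25, SE 0.0624), Psma1 (-0.29, SE 0.0808) and Psma3 (-0.32, SE 0.0919) in the authors' deposited table. Of 39 genes of ER folding and translocation 7 were lower (17.9%) and 33 lay below 0. The largest falls were those of the oligosaccharyltransferase gene Ostc (-0.41, SE 0.0860) and asparagine synthetase Asns (-0.38, SE 0.111), a target of the stress factor ATF4, and the other calls included the signal peptidase gene Spcs2 (-0.29, SE 0.0776) and the transferase subunit gene Rpn1 (-0.20, SE 0.0544). Cytosolic ribosomal protein genes had 4 lower calls of 81 (4.94%), Rpl19 (-0.22), Rps27a (-0.28), Rpl10 (-0.18) and Rpl6 (-0.21), and 62 below 0, and near-identical pseudogenes make single members uncertain. Mitochondrial ribosomal protein genes had 1 of 76 (1.32%), Mrpl18 (-0.25, SE 0.0692), with 52 below 0. Translation factors had 1 of 61 (1.64%), Eif3m (-0.25), and spliceosome genes 1 of 71 (1.41%), Srsf3 (-0.20). Aminoacyl-tRNA synthetases had none of 36, with Iars2 at -0.17 (SE 0.0592) and Dars at -0.25 (SE 0.0916). Chaperones had 3 lower calls of 59 (5.08%), the chaperonin subunit Cct4 (-0.26), Dnajc13 (-0.19) and Dnaja2 (-0.24). Of 38 lysosomal genes cathepsin B gene Ctsb (-0.28, SE 0.0776) and arylsulfatase Arsb (-0.40, SE 0.116) fell and Ctss rose, and of 16 vacuolar ATPase genes Atp6ap2 (-0.40, SE 0.0898) and Atp6v1h (-0.29, SE 0.0882) fell.

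These lists of shared cellular machinery differ from other genes in level and length, so the counts are also given within levels. Joined after their values were seen, 15 such lists held 818 tested genes, 1 called higher (Ctss) and 51 lower, with 625 below 0. All other tested genes held 200 higher and 203 lower calls. At a mean of 1000 and above the joined lists had no higher and 36 lower calls of 326 (11.04%), and the other genes 33 and 81 of 2049 (5.56%). At 100 to 1000 the counts were 1 and 15 of 409 (3.91%) against 109 and 106 of 5507 (3.90%). Below 100 the joined lists had no call among 83 genes. With each level recentred on its own median, calls were 0 higher and 6 lower for the proteasome, 0 and 6 for oxidative phosphorylation, 0 and 5 for G2 and M phase and 0 and 6 for histone genes. The same setting left 0 and 4 for the ER list, 1 and 1 for oxidant defence, 0 and 1 for chaperones, 1 and 0 for translation factors, 1 and 1 for both glycolysis and G1 and S phase, and none for spliceosome genes and cytosolic ribosomal proteins, so the calls of these lists depend on the centre chosen. The common reference genes were not neutral either. Of 15 housekeeping control genes 12 lay below 0 and the median was -0.10, as was that of the joined lists. Among them Ppia (-0.28, SE 0.0744) and Hprt (-0.26, SE 0.0723) fell and B2m rose, while Actb (-0.05, SE 0.0489) and Gapdh (-0.10, SE 0.0823) did not pass in the authors' deposited table. The ribosomal precursor Rn45s, which took 9.06% of the sum of means, had a value of -0.10 (SE 0.0752).

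Zinc finger genes leaned upward, and cytoskeletal genes went both ways. Of 360 tested Zfp and Zbtb genes 11 were called higher and none lower (3.06%), a share below that of all genes, but 260 lay above 0 and the median was 0.09. Their median exon length was 4.74 kb and their median mean 210. After Zbtb16, the smallest adjusted p-values were those of Zfp711 (1.22, SE 0.281), Zfp235 (0.59, SE 0.160) and Zfp521 (0.43, SE 0.119) in the authors' deposited table. Of 45 actin genes Tpm4 and the supervillin gene Svil (0.24, SE 0.0759) rose and Actr3, Cnn3 and ezrin gene Ezr (-0.29, SE 0.0617) fell. Rab and Rab-associated genes had Rab18 (-0.34, SE 0.0765) and Rab31 (-0.24, SE 0.0655) lower and Rab11fip3 (0.77, SE 0.214) higher, of 53, and tubulin genes Tubb4b (-0.39, SE 0.0790) and Tuba4a (-0.26, SE 0.0687) were lower. Integrin gene Itga1 (0.85, SE 0.192) was the call among 20. Of 205 solute carriers 7 were higher and 3 lower (4.88%), the rises including the neutral amino acid carrier Slc6a15 (0.84, SE 0.195). Of 29 ABC transporters Abcc4 (-0.36, SE 0.0758) and Abca13 (-0.77, SE 0.192) fell and Abca9 rose (0.64, SE 0.197). Among genes looked at after their values were seen, 3 of 7 tested Wnt receptor genes were higher, Fzd1 (0.98, SE 0.296), Fzd3 (0.65, SE 0.178) and Fzd8 (1.12, SE 0.301).

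Some groups held no called gene. Of 71 histone modifying enzyme genes none was called and 66 had a 95% interval within 0.5 of 0. Nearest to the threshold were the demethylase gene Kdm6b (0.38, SE 0.135, adjusted p = 0.0817) and, in the authors' deposited table, Setd1b (0.24, SE 0.0839, adjusted p = 0.0817). Mll2, a symbol that has stood for more than one histone methyltransferase gene and was not matched to the list, was called higher as given above. None was called among 20 tested cholesterol synthesis genes (Pmvk at -0.31, SE 0.169, and Fdps at -0.26, SE 0.162), 12 imprinted genes (Gnas at -0.15, SE 0.0507, and Grb10 at -0.23, SE 0.0953) or 13 cytochrome P450 genes (Cyp11a1 at -0.88, SE 0.344, and Cyp2t4 at 0.68, SE 0.321). Small nucleolar RNA genes and their hosts had none of 54, with Snhg7 at 0.42 (SE 0.154) and Gas5 at 0.18 (SE 0.0738), but 41 lay above 0. Long non-coding RNA genes leaned the same way, with 5 higher and no lower calls of 318 (1.57%, against 3.96% of all tested genes). Of these genes 73.3% lay above 0 and the median was 0.17. Below a mean of 100 the share above 0 was 73.9% for long non-coding and 61.4% for protein-coding genes. Symbols that are clone or model numbers had 14 higher and no lower calls of 802 (1.75%), with a median mean of 64.9. All tested genes with a mean under 100 had 58 higher and 16 lower calls of 3199 (2.31%). In lists of myeloid malignancy genes, Tet2 was followed by the cohesin gene Stag2 (-0.18, SE 0.0519) and Gata2, and 33 of 34 tested members had a 95% interval within 0.5 of 0.

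Promoter CG content differed between called higher and called lower genes. CG dinucleotides are the sites TET2 acts on, so windows of 300 bases around the start were counted for the 7366 tested genes with exactly 1 RefSeq window. The median count of CG was 16 among 124 called higher, 22 among 165 called lower and 21 among 7077 genes not called, and 7 over all 22862 promoters. Fewer than 10 CG were found in 34.7% of called higher, 17.0% of called lower and 15.1% of other promoters. At a mean of 100 to 1000 the medians were 16 for called higher, 23 for called lower and 22 for others. At 1000 and above they were 25, 22 and 25, over 18 and 76 called genes and 1430 others. Below 100 they were 14, 8 and 17, over 39 and 11 called genes and 1932 others, so called higher genes had the smaller median of both called groups at 100 to 1000 alone. The ratio of the medians of called higher to called lower was 0.727 for the count and 0.795 for CG observed over expected. CACGTG, the E-box, was in 8.06% of called higher, 7.27% of called lower and 10.7% of other promoters.

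Single promoters of called genes, picked by function, are shown as the 150 bases before the start with each CG in capitals (RefSeq, GRCm38.p6, gene strand). They differ in both function and direction of call, which cannot be told apart in them, and they do not stand for all called genes. The lower called proteasome and ATP synthase genes Psmd14, chr2:61711544-61711693 (plus strand), and Atp5b, chr10:128083157-128083306 (plus strand), are set beside the higher called myeloid genes Ms4a6c, chr19:11469218-11469367 (plus strand), Ctss, chr3:95526636-95526785 (plus strand), and Cybb, chrX:9469325-9469474 (minus strand).
Psmd14: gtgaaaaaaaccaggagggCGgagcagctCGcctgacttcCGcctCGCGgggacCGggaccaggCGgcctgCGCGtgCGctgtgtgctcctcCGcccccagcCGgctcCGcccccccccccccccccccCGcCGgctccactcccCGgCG
Atp5b: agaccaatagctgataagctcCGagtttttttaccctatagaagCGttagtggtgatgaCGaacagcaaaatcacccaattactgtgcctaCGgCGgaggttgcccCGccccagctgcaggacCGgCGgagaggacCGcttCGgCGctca
Ms4a6c: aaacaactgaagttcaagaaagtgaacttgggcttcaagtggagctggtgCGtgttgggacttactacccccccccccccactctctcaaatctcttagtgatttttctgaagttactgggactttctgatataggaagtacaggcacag
Ctss: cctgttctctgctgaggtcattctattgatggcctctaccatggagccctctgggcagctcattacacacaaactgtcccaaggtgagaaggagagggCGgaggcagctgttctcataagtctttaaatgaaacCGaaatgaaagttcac
Cybb: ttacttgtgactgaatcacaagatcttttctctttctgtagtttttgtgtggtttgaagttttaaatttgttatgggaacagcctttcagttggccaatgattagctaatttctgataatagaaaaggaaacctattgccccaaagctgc
These stretches hold 17 CG for Psmd14 and 11 for Atp5b, against 1 for Ms4a6c, 2 for Ctss and 0 for Cybb. The monocyte list as a whole had a median of 4 CG per window over 13 promoters and the proteasome list 19 over 37. The primary granule list, whose calls were lower, also had few, with a median of 5.5 over 14 promoters, so a CG-poor promoter went with both directions.

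On chromosome 3, which carries Tet2, the share called near the gene depended on the window. Within 30 Mb of Tet2, 13 of 182 tested genes were called (7.14%), 12 of them lower. Elsewhere on the chromosome 13 of 351 were called (3.70%), 7 of them lower, and on all other chromosomes 424 of 10833 (3.91%). Among single chromosomes the share ran from 1.97% on chromosome 8 to 6.34% on chromosome 1, below that of the 30 Mb window. The window holds fewer tested genes than any of these chromosomes, of which chromosome 18 had the fewest (287). Smaller sets scatter more, and windows of like size elsewhere were not counted. The 10 of smallest adjusted p in the window were Gnai3, Sgms2, Wnt2b, Vcam1, Gstm1, Lmo4, Cnn3, Magi3 (-0.54, SE 0.114), Ostc and Psma5, and only Wnt2b among them rose. Ppa2 (-0.39, SE 0.123), an inorganic pyrophosphatase gene of mitochondria, lies next to Tet2, 85444 bases away, and was called lower. Within 10 Mb 3 of 45 were called (6.67%), against 4.71% elsewhere on the chromosome, and within 60 Mb 19 of 392 (4.85%), against 4.96%.

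**Figure D4:**
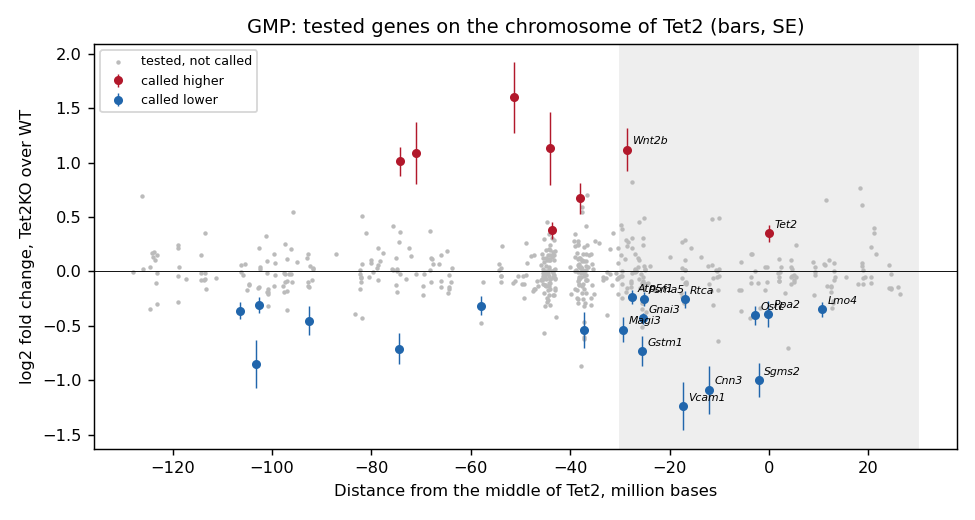
Tested genes of chromosome 3 by distance from the middle of Tet2 in Mb (x axis) and log2 fold change of Tet2KO over WT in GMP (y axis); red and blue points with SE bars were called, grey points were not, and the shaded band spans 30 Mb on each side. Of the called genes in the band other than Tet2, 12 lie below 0 and Wnt2b lies above it.

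Adjacent tested genes that were both called formed 21 pairs over the genome, 12 with the same and 9 with opposite directions. Of all tested genes 3.96% were called. How many adjacent pairs that share alone would give was not computed, so the pairs are described and not read as clustering. Same-direction pairs included Pdgfrb and Csf1r, 15537 bases apart and both higher, Ifngr1 and Il22ra2, 11769 bases apart and both lower, Etv5 and Dgkg (-0.44), and Rpn1 and Gata2. Tet2 and Ppa2 were an opposite pair. No source used here says whether the counting used strand.

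The test of a difference from MPP passed for few genes. The difference of both log2 fold changes passed for 7 of 11050 genes tested in both tables (0.0633%). Of the 455 called GMP genes with a usable name, 413 were tested in MPP, 15 were called there too and 4 passed the test of the difference, while 34 were marked as outliers and 8 were too low there. The 4 were Gstm1 (-0.73 in GMP, 0.08 in MPP), Max (0.33 and -0.18), Tpm4 (0.60 and -0.19) and Pf4 (1.35 and -0.92) in the authors' deposited tables. Both tables share 3 mice per genotype, and the test treats their errors as independent. With errors taken as correlated at 0.402 the count was 84 in place of 7. For most called genes a shared and a GMP-restricted effect could not be separated at this precision.

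**Figure D5:**
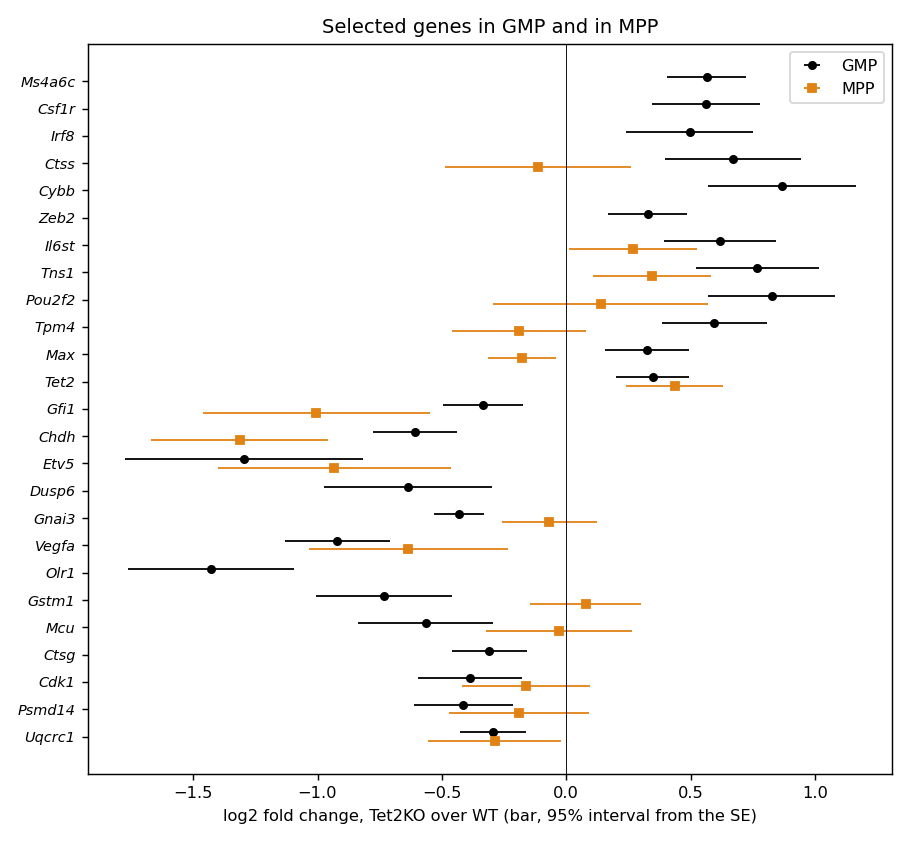
Log2 fold changes of Tet2KO over WT with 95% intervals from the SE for 25 genes chosen after their values were seen, in GMP (black circles) and in MPP (orange squares; absent where the gene carried no test in MPP). Intervals of Tpm4 and Gstm1 lie apart in the populations, whereas those of Etv5, Vegfa and Uqcrc1 overlap.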

How the data were processed

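Bulk RNA-seq of sorted GMP was analysed from the result table that the authors deposited for Tet2KO against WT, with 4 libraries per group, and the matching MPP table. Total RNA (2 ng, integrity number above 8) was amplified, and libraries were read as single ends of 75 bp, per the labels' protocols. STAR, the build mm10 and DESeq2 appear in the submitters' processing notes without versions. The read counter was not given in the sources used here, nor was the gene annotation. Means are normalized signal as deposited by the authors, averaged over the libraries of a population. The log2 fold change with its SE and both p-values, raw and adjusted, are the authors' own, as deposited. The sign of a change rests on the table's name. SEs reached at most 0.359 and were small again at the lowest means, as with values shrunken towards 0, which may understate changes of weakly expressed genes.

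Genes were called at an adjusted p of 0.05. Gene lists were counted without a set test. The members and lists were chosen with earlier results of these data known. List symbols were matched directly or through RefSeq synonyms, and 98.8% of tested genes were placed with GENCODE M21 (GRCm38). Exon length is the union of all annotated exons. The 27 symbols turned into dates, 1 of them called, stayed in totals only. The GMP and MPP fold changes were compared through their difference over the root of the summed squared SEs, two-sided and Benjamini-Hochberg adjusted over 11050 genes. Named genes were up to 4 called members per list, the 3 higher and 3 lower called genes of smallest adjusted p per level, up to 10 called near Tet2, the 5 highest and 5 lowest outlier-marked genes with a mean of at least 50, and the genes differing between populations; others are named as members of a described list or set, and some that the rule names are not reported here. Calls were also tested on simulated data. The work used scipy 1.17.1, pandas 2.3.3, numpy 2.4.6 and matplotlib 3.10.9 under Python 3.11.15. Alternatives were other thresholds, filters on the mean, recentring and an empirical null.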

Additional observations from a re-analysis of the deposited data

Results flagged for a closer look

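For 7 genes the effect of genotype (Tet2KO over WT, log2) differed between GMP and MPP by the test of the difference itself (adjusted p from 0.0155 to 0.0316). Pde2a, a cyclic nucleotide phosphodiesterase, differed by -0.98 (GMP minus MPP, SE 0.231), as it was near 0 in GMP. Gstm1, a glutathione transferase, differed by -0.81 (SE 0.180). Max, the partner of MYC proteins, differed by 0.50 (SE 0.111), the stress gene Sesn1 by 0.59 (SE 0.128) and the tropomyosin gene Tpm4 by 0.78 (SE 0.175). The RNA-binding protein gene Rbm47 differed by 1.65 (SE 0.359) and the platelet chemokine gene Pf4 by 2.27 (SE 0.516), the latter with means of 37.2 in GMP and 11.5 in MPP. All values come from the authors' deposited tables, and single libraries could not be examined.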

How the results depend on the processing

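No paired analysis was possible because the tables hold no values per library, and leaving out single libraries was not run for the same reason. Of 456 called genes (201 higher, 255 lower), 198 (85 and 113) were left at an adjusted p of 0.01 and 768 (344 and 424) passed at 0.1. An empirical null, which divides each statistic by the robust spread of 1.35, left 72 (36 and 36). Requiring an absolute log2 fold change of 0.5 left 159 (109 and 50), which turned the majority to higher. Recentring on the median of genes with a mean of at least 100 gave 450 (242 and 208) and recentring each level gave 420 (220 and 200), both chosen after seeing the data, and both turned the majority to higher. Under the latter, higher genes were 58.3% of calls at a mean of 5000 and above and 50% at 10 to 50, while 49 were higher and 64 lower at 1000 to 5000. Recentring each level also changed the sign of 4 of 71 list medians, none of them in a list described as 1-sided. None of the 455 called genes with a usable name changed sign under recentring, whereas genes near 0 that were not called can. A minimum mean of 50 gave 444, no filter on the mean 349 and recentring on the overall median 456. By quintiles of the mean, 2.39% were called in the lowest and 6.43% in the highest, with 76.4% and 21.6% of those calls higher. The difference between populations passed for 7 genes, for 14 at an adjusted p of 0.1, and for 84 with errors taken as correlated at 0.402, a value read from the statistics themselves that is no estimate of what shared mice bring. Near Tet2, 3 genes were called within 10 Mb against 13 within 30 Mb. Depth per library is unknown.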

Other observations

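Genes marked as outliers in the authors' deposited table carry no p-value and enter no count of called genes. Of 276 with a mean of at least 50, 132 lay above and 144 below 0. Among the highest log2 fold changes were those of the cationic amino acid carrier Slc7a2 (1.18, SE 0.296), the chromatin protein gene Hmga2 (1.17, SE 0.265), the tight junction gene Tjp1 (0.96, SE 0.271) and Rnf150 (0.95, SE 0.293) in the authors' deposited table. The lowest were those of Mefv, the pyrin gene (-1.38, SE 0.259), Ms4a2, a chain of the high-affinity IgE receptor (-1.28, SE 0.146), the G1 cyclin gene Ccnd1 (-0.92, SE 0.222), the deiodinase gene Dio2 (-0.88, SE 0.142) and Mgam (-0.85, SE 0.168). Ms4a2 belongs to the mast cell list, whose called members lay on the same side.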
